A study of Mus musculus with 7 samples.

Results

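The genes described here are the 9 that were taken to represent MHC class II antigen presentation among the 55487 genes measured in mouse mammary tumours. They were chosen by name, as the rows whose identifier maps to H2-Aa, H2-Ab1, H2-Eb1, H2-DMa, H2-DMb1, Cd74, Ciita, Ctss and Ifi30; the rule uses no measured value. All 9 were detected and all 9 passed the filter on low values. The tumours grew in BALB/c mice, in the mammary fat pad, from 4T1-12b(luc) cells, a stably transfected form of the 4T1 mouse mammary carcinoma line, and every sample carries the genotype label WT and the time label day 12. From a tumour size of about 150 mm3, each tumour received 6 injections of 50 µl, on alternating days, of saline (Saline, 3 libraries) or of small extracellular vesicles, which are membrane particles shed by cells. The vesicles came from cultured 4T1 cells that had been kept for 72 h in DMSO (Cont sEV, 1 library) or in 100 ng/ml nocodazole, a microtubule poison used to bring on therapy-induced senescence (TIS sEV, 3 libraries), and that had then been released into fresh medium for 72 h. The ages of the mice are not in the labels. Nothing in the labels says that replicates are separate animals, so the p-values speak for the spread among these libraries alone, part of which may be technical. The mapping of the vesicle columns to Cont sEV and TIS sEV was read from abbreviated column names, and every vesicle comparison rests on it.

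MHC class II molecules are pairs of an alpha and a beta chain that carry peptides from endosomes to the cell surface, where CD4 T cells read them. The invariant chain, encoded by Cd74, fills the groove of newly made class II molecules and escorts them to endosomes, where proteases such as cathepsin S cut it away and the DM heterodimer exchanges its last fragment for antigenic peptide. Dendritic cells, macrophages and B cells express these genes under the coactivator CIITA, and interferon gamma turns the same programme on in many other cells, tumour cells among them. CIITA does not bind DNA itself; it joins the RFX, CREB and NF-Y proteins that sit on the X and Y boxes in front of class II genes. BALB/c mice carry the d haplotype of the mouse MHC (H2) locus, whereas the reference genome is that of a strain with the b haplotype, and class II chains are polymorphic. How that difference affects the level of one chain against another was not tested; it is shared by all 7 libraries.

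The sequences just before the start of 3 of the genes are shown because they hold the elements through which this pathway is known to be switched on. They come from RefSeq on GRCm38.p6, which had a promoter record for 6 of the 9 genes (7 records of 32851 in all), and are the reference strain's sequence, not that of the tumours. Each run covers the 120 bases before the start, 5′ to 3′ on the strand of the gene. Capitals mark the letters AACNGATG (the core of an X box), TGACGTCA (the cyclic AMP response element, CRE), ATTGG or its reverse complement CCAAT (the core of a Y box) and GAAANNGAA (an interferon response core). No marked match overlapped another.
H2-Aa, chr17:34287824-34287943, minus strand: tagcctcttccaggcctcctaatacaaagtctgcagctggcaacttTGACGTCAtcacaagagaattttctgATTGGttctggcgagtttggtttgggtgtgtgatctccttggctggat
H2-Eb1, chr17:34305747-34305866, plus strand: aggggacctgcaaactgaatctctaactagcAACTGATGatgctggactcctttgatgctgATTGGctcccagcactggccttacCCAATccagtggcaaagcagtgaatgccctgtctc
Ctss, chr3:95526666-95526785, plus strand: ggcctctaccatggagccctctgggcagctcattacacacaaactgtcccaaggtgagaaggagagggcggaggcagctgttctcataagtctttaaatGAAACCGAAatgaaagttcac

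In H2-Eb1 the X box core lay 89 to 82 bases before the start and a Y box core 59 to 55 bases before it. H2-DMb1 held the same pair, at 92 to 85 and at 61 to 57 bases. In H2-Aa a CRE lay 74 to 67 bases before the start and a Y box core 48 to 44 bases before it. An X box core followed by a Y box core 10 to 40 bases on was found, on either strand, in 13 of the 32851 windows of 250 bases (0.0396%), and a CRE followed in this way by a Y box core in 38 (0.116%). Searched alone on both strands, the Y box core was in 33.8% of these windows, the X box core in 1.98%, the CRE in 1.55% and the interferon response core in 7.13%. The Ctss window held the interferon response core 21 to 13 bases before the start and an X box core at 207 to 200 bases, with no Y box core. In 1 of the 2 H2-DMa records a Y box core stood 198 to 194 bases before the start, and none of the 4 patterns was in the Ifi30 window. These are matches of letters and not binding sites shown by these data.

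Levels are given in TPM, the abundance of a gene's transcripts corrected for their length and scaled to the same total in each library. Sequencing depth cannot be recovered from such values and is unknown here. TIS sEV replicate 2 stood apart: nuclear ribosomal RNA made up 22.9% of its TPM and 0.807% to 2.40% of that of the other 6 libraries, while the share of nuclear protein-coding genes was 28.6% there and 56.8% to 74.7% elsewhere. Only 8909 genes reached 1 TPM in it, where the others had 11378 to 12328. TPM is a share, so ribosomal RNA displaces every other gene of a library. The median log2(TPM + 1) over tested genes was 1.80 in TIS sEV replicate 2 and 3.04 to 3.65 in the others. The median tested gene was 0.62 lower (log2) in TIS sEV than in saline. How much of this shift comes from ribosomal RNA was not tested. Differences are therefore also given relative to the median gene, which is the fitted log2 difference of a gene minus the median over the 12058 tested genes. The p-values, from limma with Benjamini-Hochberg adjustment over those genes, test the fitted difference itself. In the main fit limma gave full weight to the spread expected at a gene's level (infinite prior degrees of freedom). The SEs, intervals and p-values of that fit therefore do not measure a gene's own spread among replicates. These are bulk tumours, in which fewer cells of a type and less RNA per cell cannot be told apart.

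The class II chains were abundant. H2-Aa, the alpha chain of the I-A molecule (chromosome 17, 34282744 to 34287823, minus strand), measured 370, 278 and 926 TPM in saline replicates 1, 2 and 3, 831 TPM in the Cont sEV library, and 738, 74.8 and 848 TPM in TIS sEV replicates 1, 2 and 3. H2-Ab1, the beta chain that pairs with it (chromosome 17, 34257689 to 34269419, plus strand), measured 284, 291 and 709 TPM in saline, 720 TPM in Cont sEV, and 558, 42.4 and 752 TPM in TIS sEV. H2-Eb1, the beta chain of the I-E molecule (chromosome 17, 34305867 to 34316674, plus strand), measured 305, 293 and 803 TPM in saline, 668 TPM in Cont sEV, and 734, 47.3 and 821 TPM in TIS sEV. In all 3 chains the third saline library, the Cont sEV library and TIS sEV replicates 1 and 3 were high, saline replicates 1 and 2 were lower, TIS sEV replicate 2 was the lowest, and saline and TIS sEV overlapped.

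Group means hid this split. H2-Ab1 averaged 428 ± 244 TPM (SD, n = 3) in saline and 451 ± 366 TPM (SD, n = 3) in TIS sEV, and its highest saline library was 2.50-fold above its lowest. The fitted difference of H2-Ab1, TIS sEV minus saline, was -0.56 ± 0.58 (log2, SE), or 0.05 relative to the median gene, with a limma adjusted p of 0.572. For H2-Aa the fitted difference was -0.34 ± 0.57, or 0.28 relative to the median gene (limma adjusted p = 0.710), and for H2-Eb1 it was -0.44 ± 0.58, or 0.18 relative to the median gene (limma adjusted p = 0.643). The 95% interval of the fitted difference of H2-Ab1 ran from -1.70 to 0.57, which holds differences of either sign.

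**Figure D1:**
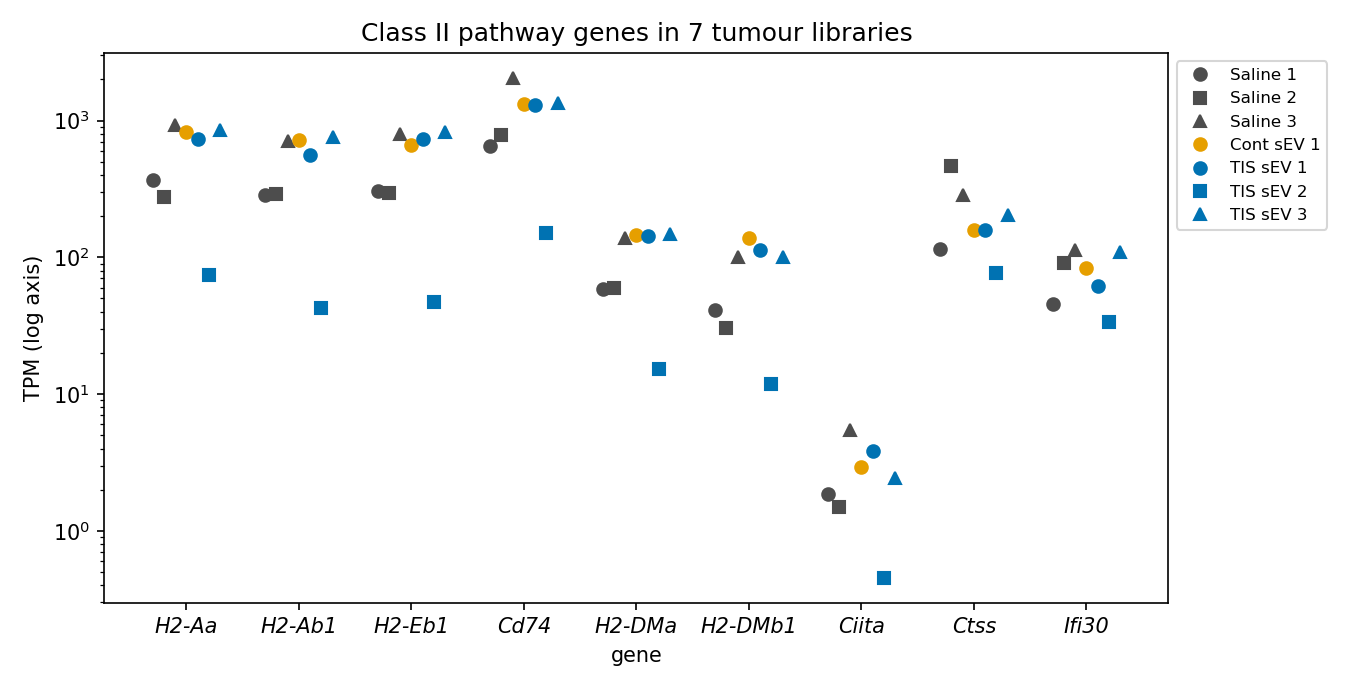
TPM (log axis) of the 9 class II pathway genes in each of the 7 libraries, 1 point a library, coloured by group and with a marker shape for each replicate number. TIS sEV replicate 2 was the lowest library in TPM for every gene, and the other TIS sEV libraries lay within or near the range of saline. With library medians removed, the lowest was instead saline replicate 2 for H2-DMb1 and Ciita, and saline replicate 1 for Ctss and Ifi30.

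Cd74, the invariant chain (chromosome 18, 60803848 to 60812652, plus strand), had the highest TPM of the 9 genes in all 7 libraries. It measured 656, 781 and 2046 TPM in saline, 1318 TPM in Cont sEV, and 1295, 151 and 1342 TPM in TIS sEV. The third saline library was above every other, and TIS sEV replicate 2 was below every other. The fitted difference, TIS sEV minus saline, was -0.66 ± 0.54 (log2, SE), or -0.05 relative to the median gene (limma adjusted p = 0.512). Its sign relative to the median gene turned to 0.13 with size factors.

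The DM heterodimer, which loads peptide, was lower than the chains it serves. H2-DMa, its alpha subunit (chromosome 17, 34119541 to 34139101, plus strand), measured 58.4, 59.7 and 138 TPM in saline, 145 TPM in Cont sEV, and 144, 15.2 and 147 TPM in TIS sEV. H2-DMb1, a beta subunit (chromosome 17, 34153072 to 34160230, plus strand), measured 41.2, 30.2 and 100.1 TPM in saline, 139 TPM in Cont sEV, and 113, 11.8 and 99.7 TPM in TIS sEV. The order of the libraries resembled that of the chains, and the groups again overlapped. Relative to the median gene, H2-DMb1 differed by 0.66 and H2-DMa by 0.45 between TIS sEV and saline, the highest values of the 9 genes, with limma adjusted p-values of 0.963 and 0.865. H2-DMb1 has a near-identical neighbour, H2-DMb2, which took 25.4% to 40.2% of the summed TPM of both in the 7 libraries, so their split is uncertain. H2-DMa overlaps Brd2 and 3 other annotated genes on chromosome 17, and whether counting used the strand is not given in the sources used here.

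Ciita, the coactivator (chromosome 16, 10480059 to 10528418, plus strand), was the lowest of the 9 genes in every library. It measured 1.86, 1.49 and 5.46 TPM in saline, 2.91 TPM in Cont sEV, and 3.85, 0.46 and 2.42 TPM in TIS sEV. In TPM the third saline library was again the highest and TIS sEV replicate 2 again the lowest. With library medians removed, saline replicate 2 was the lowest. Relative to the median gene, Ciita differed by 0.31 between TIS sEV and saline (limma adjusted p = 0.698), 0.23 with a pseudocount of 0.1 and 0.11 with size factors. The fitted difference, which the pseudocount shrinks in so low a gene, was -0.31 (log2). Ciita overlaps Dexi, a gene on the other strand.

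The endosomal enzymes had another pattern over the libraries. Ctss, cathepsin S, which trims the invariant chain (chromosome 3, 95526786 to 95556403, plus strand), measured 116, 467 and 283 TPM in saline, 158 TPM in Cont sEV, and 159, 76.9 and 204 TPM in TIS sEV. Its highest library was saline replicate 2, in which H2-Aa and H2-DMb1 had their lowest saline values. The fitted difference of Ctss, TIS sEV minus saline, was -0.87 (log2), or -0.25 relative to the median gene (limma adjusted p = 0.484), with a 95% interval of the fitted difference from -2.06 to 0.32. Without saline replicate 2 the value of Ctss relative to the median gene became 0.13. Ifi30, the thiol reductase GILT, which opens disulfide bonds of antigens in endosomes (chromosome 8, 70762774 to 70766663, minus strand), measured 45.8, 91.2 and 114 TPM in saline, 84.2 TPM in Cont sEV, and 61.5, 33.9 and 109.5 TPM in TIS sEV. It differed by 0.27 relative to the median gene between TIS sEV and saline (limma adjusted p = 0.730), and its groups overlapped.

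The comparison of TIS sEV with saline asks what vesicles of senescent cells did to these tumours. None of the 9 genes passed the adjusted threshold of 0.05 by limma, where 62 of the 12058 tested genes (0.514%) were called. None had an unadjusted limma p under 0.05, where 1245 of the 12058 did. Relative to the median gene, 7 of the 9 stood higher in TIS sEV and 2, Cd74 and Ctss, stood lower, though Cd74 turned to 0.13 with size factors and, with quantile normalization, H2-Ab1 turned to -0.16 and H2-Eb1 to -0.0043. The median over the 9 was 0.27, where that over all tested genes is 0 by construction. With each library's own median removed, 0 of the 9 genes separated all saline from all TIS sEV libraries, as 21.9% of all tested genes did.

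The size of these differences rested on single libraries. Without TIS sEV replicate 3 the median over the 9 was -0.20, and without TIS sEV replicate 2 it was 0.93. In the fit without replicate 2, the values relative to the median gene were 0.99 for H2-Aa, 0.93 for H2-Ab1, 1.10 for H2-Eb1, 1.08 for H2-DMa, 1.27 for H2-DMb1 and 0.57 for Cd74. Those of Ciita, Ctss and Ifi30 were 0.38, -0.27 and 0.27. No gene of the 9 was called in that fit either, where 90 genes over the whole table were. The lowest limma adjusted p of the 9 was 0.200, for H2-DMb1. Unadjusted limma p-values were 0.0033 for H2-DMb1, 0.0053 for H2-Eb1, 0.0128 for H2-DMa, 0.0137 for H2-Aa and 0.0229 for H2-Ab1. For Cd74, Ciita, Ctss and Ifi30 they ran from 0.175 to 0.844. These values are for TPM as deposited. With size factors as well, a setting chosen after seeing the data, 0 genes were called over the whole table. The unadjusted limma p-values were then 0.031 for H2-DMb1, 0.040 for H2-Eb1, 0.020 for H2-DMa, 0.088 for H2-Aa and 0.063 for H2-Ab1. With each library's median removed, both remaining TIS sEV libraries lay above every saline library for 3 of the 9 genes, H2-Eb1, H2-DMa and H2-DMb1, and for 17.5% of all tested genes.

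**Figure D2:**
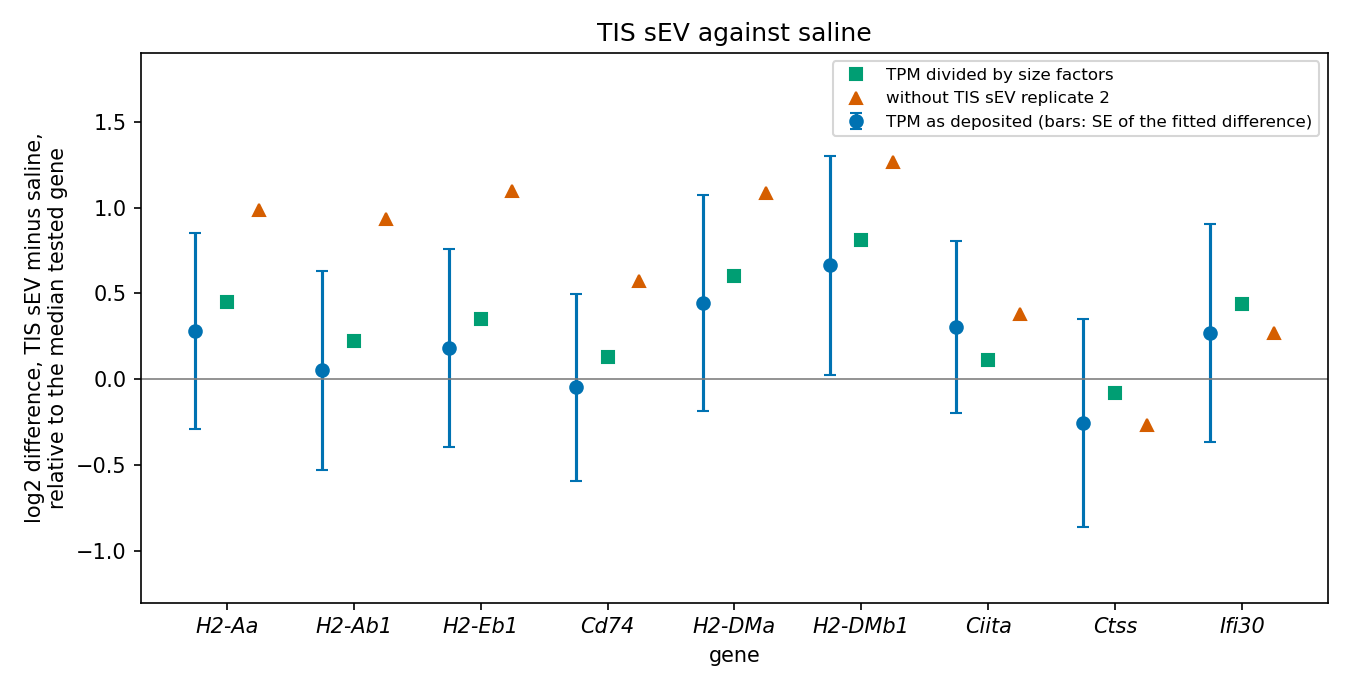
Log2 difference, TIS sEV minus saline, relative to the median tested gene, for each of the 9 genes: circles for TPM as deposited (bars, SE of the fitted difference), squares for TPM divided by size factors, triangles without TIS sEV replicate 2. Without that library the chains, Cd74 and the DM subunits lay higher, at 0.57 to 1.27, while Ctss (-0.27) and Ifi30 (0.27) kept nearly the same place.

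Cont sEV against saline gives the background of vesicles from cells that were not made senescent, with 1 library on the vesicle side that the fit assumed to vary like the others. Relative to the median gene, 8 of the 9 genes were higher in Cont sEV, from 0.44 for Ifi30 to 1.79 for H2-DMb1, and Ctss was lower by value, at -0.32; the median over the 9 was 1.01. None of the 9 was called (limma adjusted p = 0.9997 each; lowest unadjusted p 0.106, for H2-DMb1), where 25 genes (0.207%) were. With library medians removed, the Cont sEV library lay above every saline library for 6 of the 9 genes, all but Cd74, Ciita and Ctss, and for 41% of all tested genes. The p-values of this comparison depend on TIS sEV replicate 2, which sets part of the common spread, whereas its fitted differences do not.

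TIS sEV against Cont sEV shares libraries with both of those comparisons. Its values relative to the median gene were -0.91 for H2-Aa, -1.16 for H2-Ab1, -0.83 for H2-Eb1, -0.77 for H2-DMa, -1.12 for H2-DMb1 and -0.75 for Cd74. Ciita stood at -0.15, Ifi30 at -0.16 and Ctss at 0.07. None of the 9 was called (limma adjusted p = 1 each; lowest unadjusted p 0.0764, for H2-Ab1), where 27 genes (0.224%) were. Without TIS sEV replicate 2 the median over the 9 went from -0.77 to -0.14.

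The chains, the invariant chain and the DM subunits varied less against each other than in level. H2-Eb1 stood at 0.927 to 1.32 times the TPM of H2-Ab1 over the 7 libraries and H2-Aa at 0.956 to 1.76 times, while H2-Ab1 itself ran from 42.4 to 752 TPM. Part of that TPM range is the shift of TIS sEV replicate 2 as a whole. With library medians removed, H2-Ab1 ranged over 2.87 (log2). H2-DMa stood at 0.194 to 0.359 times the TPM of H2-Ab1, H2-DMb1 at 0.104 to 0.278 times and Cd74 at 1.79 to 3.57 times. The ratios of the enzymes varied more: Ctss ran from 0.219 times in Cont sEV to 1.81 times in TIS sEV replicate 2, and Ifi30 from 0.1103 to 0.798 times. Such ratios do not depend on how a library was scaled.

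A total of 14 within-library ratios were compared between TIS sEV and saline, 8 of the other genes to H2-Ab1 and 6 of H2-Ab1 to cell markers, with an exact two-sided permutation test whose smallest possible p with 3 libraries against 3 is 0.1. The DMb1-to-Ab1 ratio was 0.60 higher in TIS sEV (log2, exact permutation p = 0.3, adjusted 0.933) and the Cd74-to-Ab1 ratio was -0.09 (log2, exact permutation p = 0.9, adjusted 1). No ratio separated the groups, and the lowest p was 0.2, for H2-Ab1 to Itgax.

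**Figure D3:**
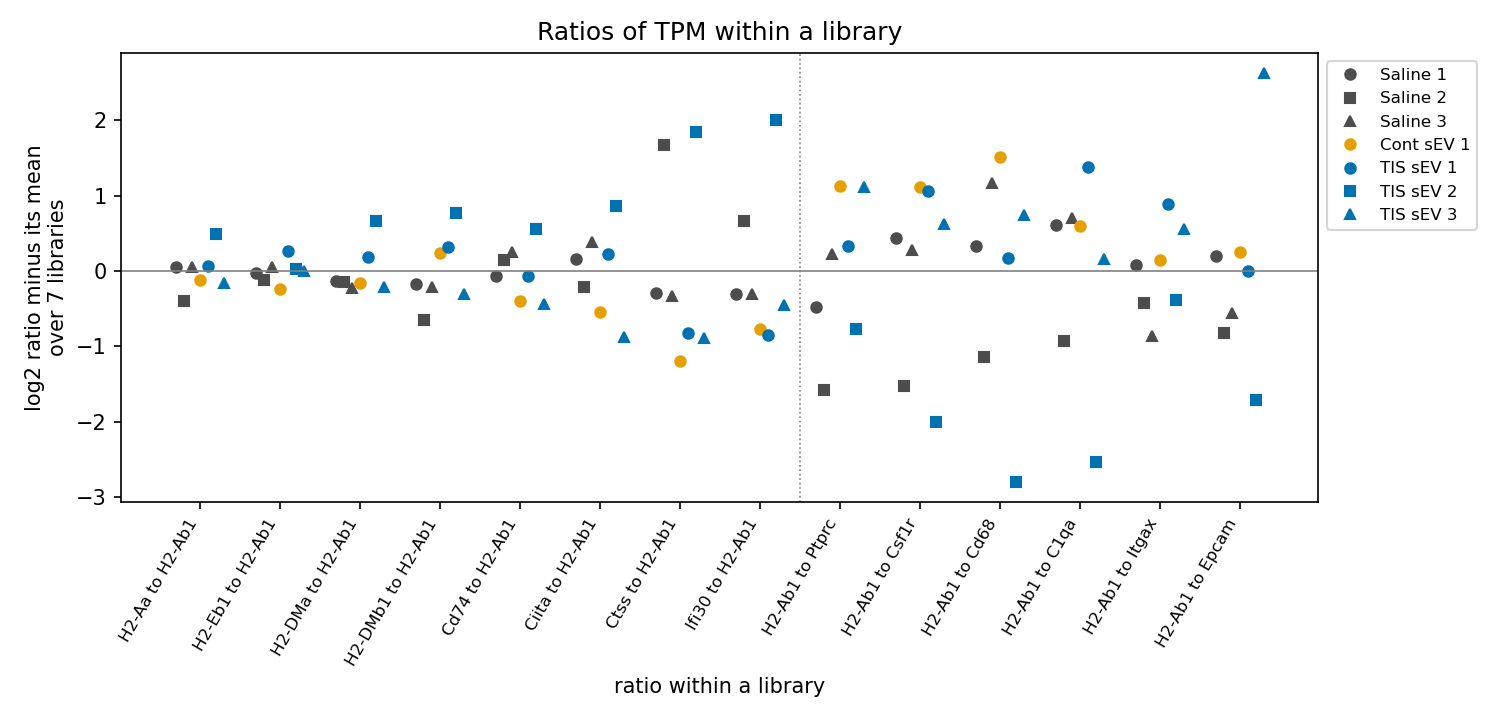
Log2 ratio of TPM within a library, minus the mean of that ratio over the 7 libraries, for 8 genes against H2-Ab1 (left of the dotted line) and for H2-Ab1 against 6 cell markers (right). Points are libraries; the ratios among chains, Cd74 and DM subunits lie within 1 log2 unit of their mean, and those with Ctss, Ifi30 or a marker spread more widely.

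The likeness of profiles gives the same picture as one number per gene. A class II profile was taken as the mean log2(TPM + 1) of H2-Aa, H2-Ab1, H2-Eb1 and Cd74 after removal of the library median. Its level was 5.48, 4.88 and 6.35 in saline, 6.70 in Cont sEV, and 6.25, 4.33 and 6.79 in TIS sEV, a range of 2.46. With its own mean removed, H2-DMa differed from this profile by 0.22 (root mean square, log2, over 7 libraries), H2-DMb1 by 0.38, Ciita by 0.73, Ifi30 by 0.85 and Ctss by 1.08. The pseudocount narrows the profile of Ciita, the lowest gene.

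**Figure D4:**
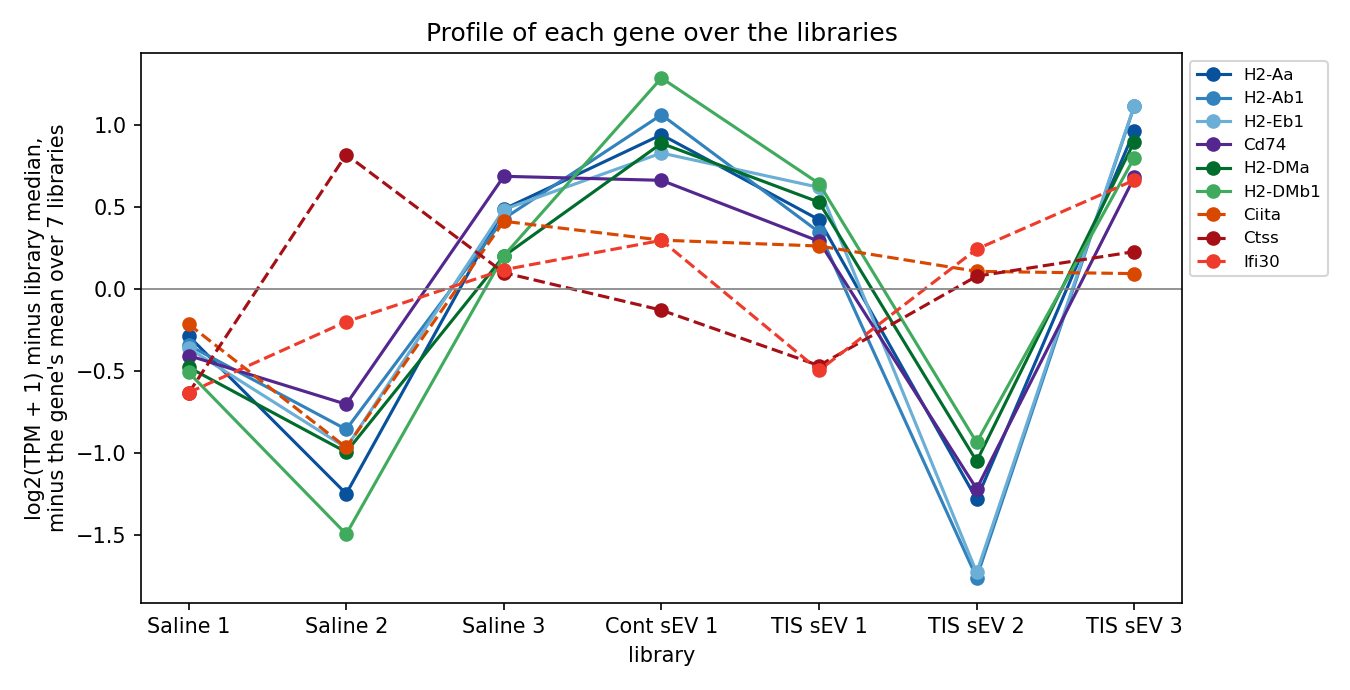
Profile of each of the 9 genes over the 7 libraries: log2(TPM + 1) minus the library median and minus the mean of the gene. Solid lines, the chains, Cd74 and DM subunits, dip in saline replicate 2 and TIS sEV replicate 2, whereas the dashed line of Ctss is highest in saline replicate 2.

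Among 2257 other tested genes with a mean of 5 TPM or more and a wide enough range, the 8 with profiles nearest to the class II profile were Pcolce (root mean square difference 0.217), H2-Ea-ps (0.243), Bst2 (0.308), Tapbp (0.321), Tap2 (0.324), Fkbp11 (0.334), Cxcl10 (0.337) and Wfdc2 (0.346). Tap2 and Tapbp serve peptide loading of MHC class I molecules, Bst2 is tetherin, and Cxcl10 is a chemokine induced by interferon. Pcolce, an enhancer of procollagen processing, measured 67.9, 62.3 and 136 TPM in saline, 125 TPM in Cont sEV, and 116, 14.0 and 171 TPM in TIS sEV. Tap2 measured 42.0, 49.0 and 117 TPM in saline, 88.9 TPM in Cont sEV, and 69.7, 3.73 and 71.2 TPM in TIS sEV. Both were lowest in TIS sEV replicate 2, like the chains, which follows largely from their choice by likeness. Likeness over 7 libraries, of which 1 stands apart, is a description.

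Of the other class II genes, H2-Ea-ps, the I-E alpha chain, was the most abundant. The annotation calls it a polymorphic pseudogene, since it is broken in the reference strain, while mice of the d haplotype make the I-E molecule. It measured 274, 199 and 748 TPM in saline, 478 TPM in Cont sEV, and 584, 38.7 and 425 TPM in TIS sEV, or 0.518 to 0.931 times the TPM of its partner H2-Eb1. H2-DMb2 measured 4.01 to 76.2 TPM and H2-Oa, a subunit of the DM inhibitor DO, 0.46 to 2.25 TPM. H2-Ob, the other DO subunit, and H2-Eb2 stayed at or under 0.15 TPM in all 7 libraries. None of the 3 that were tested was called.

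The factors that hold CIITA on class II promoters were present and none was called. In TIS sEV against saline, 2 of the 7 stood above the median gene and 5 below it, with a median of -0.17. Rfx5, the DNA-binding subunit of the RFX complex, measured 2.27, 4.48 and 4.41 TPM in saline, 1.70 TPM in Cont sEV, and 3.16, 0.54 and 1.82 TPM in TIS sEV. It was thus not among the highest in the libraries with the most H2-Ab1, the Cont sEV library and TIS sEV replicate 3. Its values relative to the median gene were -0.19 against saline and 0.25 against Cont sEV.

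The interferon gamma pathway lies upstream of Ciita. Of its 8 genes, 5 stood above and 3 below the median gene in TIS sEV against saline, with a median of 0.19 and none called. Ifng itself was scarce, at 0.81, 0.81 and 1.58 TPM in saline, 0.92 TPM in Cont sEV, and 2.27, 0.21 and 1.82 TPM in TIS sEV. As for the chains, the third saline library was in TPM the highest of its group. TIS sEV replicate 2, where the median gene was low too, was the lowest of all.

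Genes outside class II that interferon gamma induces were also measured as a list of 14. In TIS sEV against saline, 11 were higher and 3 lower relative to the median gene, with a median of 0.47 and none called. In Cont sEV against saline, 13 were higher, with a median of 1.03 and none called. Psmb9, a subunit of the immunoproteasome, measured 183, 136 and 301 TPM in saline, 730.5 TPM in Cont sEV, and 359, 100.1 and 392.5 TPM in TIS sEV. The Cont sEV library was the highest for Psmb9, and the groups of saline and TIS sEV overlapped.

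Among 11 other endosomal proteases and trafficking genes, 3 stood above and 8 below the median gene in TIS sEV against saline, with a median of -0.08 and none called. Ctsl, cathepsin L, which trims the invariant chain in thymic epithelium, measured 721, 1594 and 1070 TPM in saline, 590 TPM in Cont sEV, and 1071, 85.5 and 662 TPM in TIS sEV. It stood at -0.83 relative to the median gene (limma adjusted p = 0.415). In this comparison 2 genes of the list had an unadjusted limma p under 0.05, as had 1245 of all 12058 tested genes. Costimulatory molecules and class II receptors were low: Cd86 measured 0.75 to 5.87 TPM and Cd40 1.11 to 3.83 TPM, and Cd4, the coreceptor that binds class II, 0.18 to 0.67 TPM. The 3 of these 5 genes that were tested were higher in TIS sEV relative to the median gene, by 0.18 to 0.55, and none was called.

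Markers of the cells that could carry class II differed widely between libraries. The 7 B cell markers summed to 0.7 to 1.6 TPM in saline, 0.7 TPM in Cont sEV and 0.5 to 1.8 TPM in TIS sEV, and Ms4a1 was at or under 0.02 TPM in all 7 libraries. The 10 dendritic cell markers summed to 61.9 to 95.8 TPM in saline, 69.2 TPM in Cont sEV and 25.6 to 92.4 TPM in TIS sEV. The defining markers Flt3 and Xcr1 were at or under 0.19 TPM, so the sums come from other genes of the list. Of the 3 dendritic cell markers tested, 2 stood above and 1 below the median gene in TIS sEV against saline, from -0.06 to 1.02. All 3 stood above it in Cont sEV against saline, and none was called in TIS sEV against saline. The 10 macrophage markers summed to 1002, 3416 and 2090 TPM in saline, 1752 TPM in Cont sEV, and 887, 1638 and 2669 TPM in TIS sEV. With TPM rescaled so that the nuclear protein-coding genes of each library alone sum to the TPM total, TIS sEV replicate 2 had the highest macrophage sum of the 7 libraries, 5731, followed by saline replicate 2 with 4629. Both libraries were low in class II chains, and TIS sEV replicate 2 was the lowest. On the same scale the general leukocyte gene Ptprc went another way. It was lowest in TIS sEV replicate 2, at 1.78, and highest in saline replicate 2, at 8.30. The macrophage sum follows its most abundant genes, and the list did not move as one. C1qa, given below, had its highest TPM in TIS sEV replicate 3. Of the 9 macrophage markers tested, 6 stood above and 3 below the median gene in TIS sEV against saline, from -0.31 to 1.06.

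C1qa, a complement component of tissue macrophages, measured 169, 505 and 395 TPM in saline, 432 TPM in Cont sEV, and 194, 224 and 611 TPM in TIS sEV. The H2-Ab1 TPM was 0.189 times that of C1qa in TIS sEV replicate 2 and 2.88 times in TIS sEV replicate 1. The general leukocyte gene Ptprc measured 2.78, 6.13 and 4.29 TPM in saline, 2.33 TPM in Cont sEV, and 3.13, 0.51 and 2.44 TPM in TIS sEV. The 7 epithelial markers, which the tumour cells carry, summed to 1439 to 4212 TPM in saline, 2666 TPM in Cont sEV and 533 to 2444 TPM in TIS sEV, and 6 of the 7 were lower in TIS sEV relative to the median gene with none called. The 7 T cell markers summed to 19.3 to 36.2 TPM in saline, 20.8 TPM in Cont sEV and 10.4 to 64.4 TPM in TIS sEV, and all 7 were higher in TIS sEV relative to the median gene with none called. Of the 6 monocyte markers, 4 stood above and 2 below the median gene in TIS sEV against saline, with a median of 0.18. Only Fn1, which fibroblasts and tumour cells also make, was called, lower in TIS sEV (limma adjusted p = 0.0467). That call was lost with size factors (limma adjusted p = 0.388). Markers of other cells were summed in the same way, and each sum follows the most abundant genes of its list. The 6 monocyte markers ran from 704 to 1219 TPM in saline, 281 TPM in Cont sEV and 115 to 644 TPM in TIS sEV, and the 6 neutrophil markers from 1189 to 6084, 495 and 970 to 1769 TPM. The 7 fibroblast markers ran from 39.7 to 111 TPM in saline, 39.0 TPM in Cont sEV and 19.4 to 67.0 TPM in TIS sEV, and the 5 endothelial markers from 16.1 to 31.7, 18.7 and 4.53 to 50.3 TPM. Of 6 markers of lymph node and thymus stroma, the 5 found in the table summed to at most 1.57 TPM in any library, which was TIS sEV replicate 2. The part of these cell types in the class II values was not tested.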

How the data were processed

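RNA of primary tumour tissue was sequenced in 7 libraries: 3 Saline, 1 Cont sEV and 3 TIS sEV. The authors deposited 1 table of TPM values; per the submitters' processing notes, Salmon 1.4.0 was among the tools, beside Trim Galore 0.6.6, FastQC 0.11.9 and DESeq2 1.28.0, and the build was GRCm38.p6. The transcript annotation they used is not given in the sources used here. The column abbreviations CE and NcE were read as control and nocodazole vesicles, from the protocols and the numbers of columns; the labels do not spell this out. Symbols and coordinates are from GENCODE M21.

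Log2(TPM + 1) values, not scaled further, were fitted with limma 3.58.1 (R 4.3.3) for the 12058 genes that reached 1 TPM in 3 or more libraries, with 1 mean for each of the 3 groups, the intensity trend, two-sided tests and a threshold of 0.05. The script was tested on simulated data. Ratios were tested with SciPy 1.17.1 in Python 3.11.15. Alternatives were other scalings, pseudocounts, filters, variance settings, a replicate term and leaving out each replicate; size factors combined with leaving out TIS sEV replicate 2 was added after seeing the data. The members and gene lists were chosen with earlier results of these data known. Named were the members, the genes of the pathway lists, the called and the most abundant marker or interferon target genes, and the 8 genes nearest to the class II profile; Ptprc, C1qa, Flt3, Xcr1 and Ms4a1 were named as defining markers. Lists of monocyte, neutrophil, fibroblast, endothelial and lymph node markers were also summed.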

Additional observations from a re-analysis of the deposited data

How the results depend on the processing

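No member was called in any comparison under any alternative run, and among the values of single members over all alternatives 448 kept their sign and 41 changed it. Many of the 448 were bound to keep it. The variance settings leave every fitted difference as it was, as does the replicate block for TIS sEV against saline. Leaving out a library of a group that is not compared moves only the median gene. The counts therefore do not measure how firm the signs are. All values here are log2 and relative to the median gene. For TIS sEV against saline, Cd74 became 0.13 with size factors, 0.12 with coding TPM rescaled, 0.12 with a pseudocount of 0.1, 0.018 with a filter at 5 TPM, 0.13 with the replicate block and size factors, and 0.60 with size factors and without TIS sEV replicate 2. Quantile normalization gave -0.16 for H2-Ab1 and -0.0043 for H2-Eb1, and a pseudocount of 5 gave -0.17 and -0.044. With no filter the median gene was taken over every detected gene, and the fitted differences of the members stayed as in the main fit. Relative to that median gene, the median of the members became -0.22, H2-Aa -0.21, H2-Ab1 -0.44, H2-Eb1 -0.31, H2-DMa -0.046, Ciita -0.18 and Ifi30 -0.22. For TIS sEV against Cont sEV, Ifi30 became 0.044 with quantile normalization, and Ctss became -0.073 with a pseudocount of 5, -0.21 with no filter, -0.47 with the replicate block and -0.42 with that block and size factors. For Cont sEV against saline, quantile normalization took the median of the members to 0.54, and Ctss became 0.23 with the replicate block and 0.35 with that block and size factors. Size factors without TIS sEV replicate 2, chosen after seeing the data, gave medians of 0.97 against saline and -0.17 against Cont sEV, and 0.050 for H2-Eb1 against Cont sEV. The cause of these moves was not tested.

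Leaving out 1 replicate at a time, TIS sEV against saline ran from -0.20 (without TIS sEV replicate 3) to 0.93 (without TIS sEV replicate 2) for the median of the members, from -0.20 to 0.99 for H2-Aa, from -0.56 to 0.93 for H2-Ab1, from -0.39 to 1.10 for H2-Eb1, from -0.44 to 0.57 for Cd74, from -0.026 to 0.66 for Ciita, from -0.63 to 0.13 for Ctss and from -0.0040 to 0.56 for Ifi30. TIS sEV against Cont sEV ran from -1.16 to -0.14 for the median, from -1.40 to 0.076 for H2-Eb1, from -0.080 to 0.25 for Ctss and from -0.44 to 0.12 for Ifi30. Ctss in Cont sEV against saline ran from -0.71 to 0.049. Deviations of same-numbered saline and TIS sEV libraries from their group means correlated at -0.38, -0.0085 and 0.08 across genes. Each mean is of 3 libraries and TIS sEV replicate 2 stands apart, so these values cannot decide whether libraries are paired. The class II profile had the same replicate order in saline (5.48, 4.88 and 6.35) and TIS sEV (6.25, 4.33 and 6.79). For H2-DMb1, the lowest of the 9, the unadjusted limma p was 0.211 with size factors and 0.0179 with the replicate block added (adjusted 0.471). With the replicate block the median of the members was 0.27 for TIS sEV against saline, and 14 genes in place of 62 were called over the whole table. Size factors, rescaled coding TPM and quantile normalization each gave 0 such calls. TPM holds no counts, so what depth limits could not be measured.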
